A study of Homo sapiens with 4 samples.

Results

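Immediate early genes are switched on within minutes of a signal, without new protein synthesis, and many of them encode transcription factors. The signal usually runs through the mitogen-activated protein kinases (MAPK), and among the genes it switches on are phosphatases that take the phosphates off the same kinases and so limit it. In monocytes, ligands of Toll-like receptors drive this loop together with NF-kB, and many of its transcripts are short-lived. The 32 genes described here were chosen by name as members of this set: 9 bZIP factors of the AP-1 type, 3 EGR and 5 KLF zinc-finger factors, 3 IER genes, 6 dual-specificity phosphatases, 3 NR4A nuclear receptors, and MYC, ZFP36 and BTG2. Probe sets that named the gene alone were found for 30 of the 32, in all 68 of the 54675 probe sets on the array, and EGR2 and BTG2 were not analysed here. A probe set is a group of short probes that reads part of a transcript. Where a gene had several, the brightest on average was used, for these and for all 19775 genes of the table.

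The cells were THP-1, an established human line from an acute monocytic leukaemia, and each of the 4 conditions had 1 array of total RNA. The first condition was resting cells and the next was cells given Pam3CSK4, a synthetic lipopeptide that activates the TLR1 and TLR2 pair. The others were Pam3CSK4-treated cells kept with platelet-like particles for 12 h and for 24 h. How long the Pam3CSK4 array's cells were treated and which cells the particles came from are not given in the sources used here. The times were taken from the descriptions, although the co-culture titles end in 13 and 25. With 1 array per condition there was no spread between cultures, no test and no error on any value, and every difference below describes these arrays only.

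Levels are RMA values on the log2 scale, so a difference of 1 is 2-fold. The median of all values was 6.19, and a gene entered the counts where its level reached 6.19 on at least 1 array. Of the 30 genes, 26 did so, as did 13410 of the 19775 genes. FOSB, EGR3, NR4A2 and NR4A3 were under this level on every array, with highest values of 5.48, 5.38, 5.93 and 5.81. Among the 26, IER3, ATF3, MAFF and DUSP5 were under it on some arrays and counted because of others, so the counts are not counts over the whole set. Of the monocytic markers, LYZ lay between 12.98 and 13.81, CEBPA between 12.12 and 12.49 and TYROBP at 12.10 or more, while the master factor SPI1 lay between 6.73 and 7.02 and the sources used here gave no value for CD33. The granule enzyme MPO was at 7.01 in resting cells and under 6.19 on the other arrays, and the co-receptor CD14 was at 6.52, 8.93, 7.74 and 9.13. The platelet chemokines PF4 and PPBP stayed under 6.19 on every array, with highest values of 5.97 and 3.79. Of the 8 platelet and megakaryocyte markers, however, 5 reached 6.19 on some array, with GP9 at 7.58 in resting cells. Of markers of other cells, the T-cell gene CD3E reached 6.26, the B-cell gene MS4A1 4.998 and the epithelial gene EPCAM 4.07 at most, the cytotoxic granule gene NKG7 lay between 9.14 and 10.02, and HBB, an adult globin, between 7.19 and 7.59. Those of epithelium and fibroblasts had median levels of 6.32 to 6.75, with the keratin KRT18 between 6.63 and 7.35 and the collagen COL1A1 between 7.78 and 7.99.

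The sequence upstream of the start site was available from RefSeq (GRCh38.p14) for 24 of the 32 genes, in 30 windows of 250 bases. Each window was searched on both strands for 5 motifs: the AP-1 site (TGACTCA, or TGAGTCA), the cAMP response element (TGACGTCA), the EGR site (GCGTGGGCG), the CArG box bound by SRF, and the NF-kB site. The cAMP response element was found in MAFF, DUSP1 and JUND, and it stood in 1.65% of all 35116 windows of that length. A CArG box was found in EGR1, in 2 copies, and in EGR2, against 1.16% of all windows. The AP-1 site and the EGR site were in 0 of the 30 windows, against 4.2% and 0.72% of all windows, and the NF-kB site was in EGR2 and in MAFF, at its other start site, against 9.96%. These 4 windows are shown because they hold the cAMP response elements and CArG boxes of genes with values below, with the matches in capitals, 5' to 3' on the strand of the gene. MAFF lies at chr22:38201744-38201993 on the plus strand, DUSP1 at chr5:172771196-172771445 on the minus strand, JUND at chr19:18281623-18281872 on the minus strand and EGR1 at chr5:138465229-138465478 on the plus strand.
MAFF: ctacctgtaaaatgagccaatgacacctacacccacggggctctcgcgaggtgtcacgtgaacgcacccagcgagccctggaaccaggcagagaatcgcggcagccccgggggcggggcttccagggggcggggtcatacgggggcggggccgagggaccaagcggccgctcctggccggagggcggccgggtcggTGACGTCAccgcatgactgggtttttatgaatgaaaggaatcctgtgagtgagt
DUSP1: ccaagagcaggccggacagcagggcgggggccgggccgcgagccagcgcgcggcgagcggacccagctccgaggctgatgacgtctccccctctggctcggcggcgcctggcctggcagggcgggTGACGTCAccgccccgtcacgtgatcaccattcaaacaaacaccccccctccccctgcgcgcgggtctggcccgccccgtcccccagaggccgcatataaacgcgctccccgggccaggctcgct
JUND: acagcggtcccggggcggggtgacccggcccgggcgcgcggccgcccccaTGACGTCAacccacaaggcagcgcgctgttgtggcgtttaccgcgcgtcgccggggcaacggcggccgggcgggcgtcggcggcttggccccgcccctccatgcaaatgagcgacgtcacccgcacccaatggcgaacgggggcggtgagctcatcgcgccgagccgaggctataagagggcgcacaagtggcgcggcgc
EGR1: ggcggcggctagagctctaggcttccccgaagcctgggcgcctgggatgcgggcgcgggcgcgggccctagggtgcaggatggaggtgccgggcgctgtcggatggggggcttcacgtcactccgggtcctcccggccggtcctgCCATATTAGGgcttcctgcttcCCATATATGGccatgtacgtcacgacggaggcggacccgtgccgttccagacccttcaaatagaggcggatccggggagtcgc
The MAFF match begins 54 bases before the start site, the DUSP1 match 125 and the JUND match 200, and the EGR1 boxes begin 105 and 83 bases before it. A match describes the letters of the window and says nothing about binding in these cells.

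**Figure D1:**
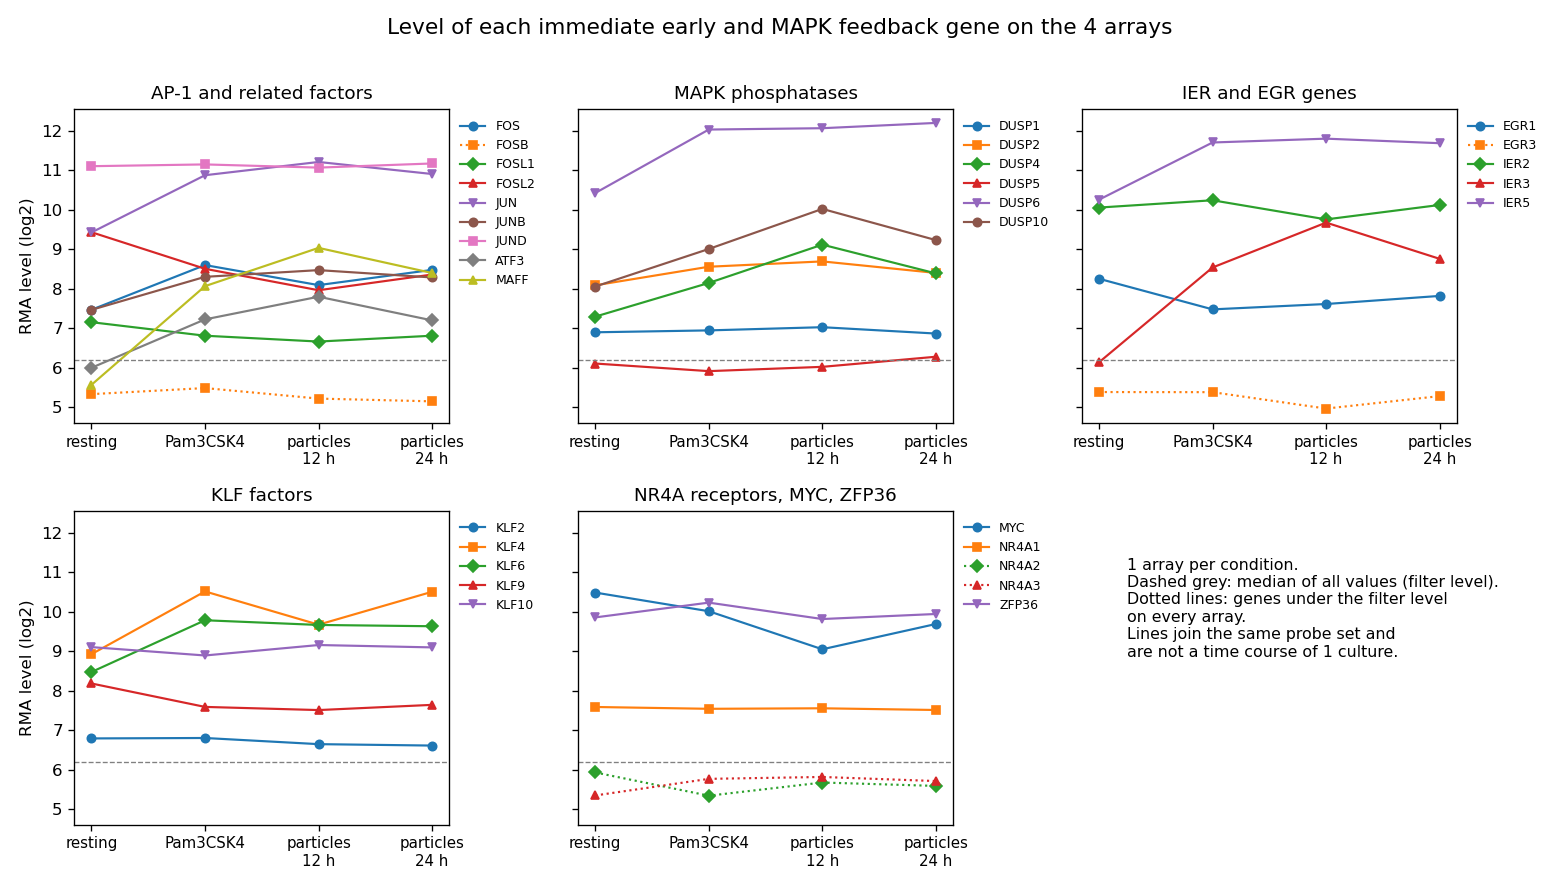
Level (log2 RMA value, vertical axis) of the 30 genes on each of the 4 arrays, grouped by role; each point is 1 array, the dashed line is the median of all values, 6.19, and dotted lines mark genes under it on every array. IER3, MAFF, DUSP4 and DUSP10 are highest at 12 h with particles, KLF4 is higher with Pam3CSK4 and at 24 h than at 12 h, and JUND and NR4A1 are nearly level.

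Against resting cells, the Pam3CSK4 array was higher for a large share of the set. Of the 26 genes counted, 9 were at least 2-fold higher, or 34.6%, where 4.14% of all 13410 genes were, and 0 were at least 2-fold lower, where 1.71% of all genes were. The median difference of the 26 was 0.42, against -0.05 over all genes. The 9 were MAFF, IER3, DUSP6, KLF4, JUN, IER5, KLF6, ATF3 and FOS, and so came from 4 of the 7 roles named above: AP-1 factors, IER genes, phosphatases and KLF factors. JUNB, DUSP4 and DUSP10 were between 1.5-fold and 2-fold higher, which made 12 of 26 past 1.5-fold, or 46.2% against 7.58% of all genes. FOSL2, EGR1 and KLF9 were at least 1.5-fold lower, 3 of 26 or 11.5% against 5.89%.

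The array of resting cells also differed from the Pam3CSK4 array in controls. GAPDH is read near its 3' end and near its 5' end by separate controls, whose gap widens as RNA is degraded, and that gap was 2.16 log2 on the resting array and 0.59 on the Pam3CSK4 array. The 9 bacterial control probe sets (BioB, BioC, BioDn and CreX), which are spiked in at hybridisation in standard use of this array type, were 0.19 to 0.45 higher on the resting array, with a median of 0.36. Monocytic markers moved as well: of the 9 counted, CD14, the integrin ITGAM and the leukocyte gene PTPRC were 2.40, 2.20 and 1.10 higher with Pam3CSK4 and MPO differed by -1.49, with a median of 0.72. The part of any of these in the differences from resting cells was not tested. The same gap for ACTB differed less, being 3.41 for resting cells and 2.91 for Pam3CSK4, and the 12 h array, at 3.17, lay about midway between them, with the 24 h array at 2.895. The GAPDH gaps at 12 h and 24 h were 0.92 and 0.70, and the bacterial controls were 0.14 and 0.08 higher than on the Pam3CSK4 array at the median. Housekeeping transcripts differed by 0.13 for ACTB and 0.32 for GAPDH between the Pam3CSK4 and resting arrays. The RNA was from whole cultures, so fewer cells of a kind and less RNA per cell cannot be told apart.

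Among AP-1 factors, JUN and FOS were higher with Pam3CSK4 and JUND was not. JUN, the basic partner of the AP-1 dimer, was at 9.43 in resting cells, 10.88 with Pam3CSK4, 11.22 at 12 h with particles and 10.91 at 24 h. The resting array was thus the lowest by 1.45 log2, or 2.73-fold, and the 3 other arrays lay within 0.34 of each other. All 4 JUN probe sets had the higher value with Pam3CSK4, by 0.60 to 1.86. FOS, the classical partner of JUN, was at 7.47, 8.60, 8.09 and 8.48 on the same arrays. It was 2.19-fold higher with Pam3CSK4 than in resting cells, and the 12 h value lay 0.51 below the Pam3CSK4 value. JUNB, a JUN relative that often limits it, was at 7.47, 8.30, 8.47 and 8.29, which is 0.84 higher with Pam3CSK4 and nearly level after that. JUND, the most constantly expressed JUN gene, stood between 11.07 and 11.18 on every array.

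The FOS-like genes did not move alike. FOSL2, which lacks the strong activation domain of FOS, was at 9.44 in resting cells, 8.51 with Pam3CSK4, 7.96 at 12 h and 8.36 at 24 h. It was highest in resting cells and lowest at 12 h. The sign of the first difference was shared by its 5 probe sets, which were lower with Pam3CSK4 by 0.03 to 0.93. At 12 h 4 of them were below Pam3CSK4, by up to 0.83, and the dimmest was 0.09 above. FOSL1 differed less, with 7.15, 6.81, 6.66 and 6.81.

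MAFF and ATF3, further bZIP factors, were higher with Pam3CSK4 and higher again at 12 h. MAFF, a small MAF protein that lacks an activation domain, was at 5.57, 8.07, 9.04 and 8.40. The first difference was 5.67-fold, the largest of the 26 and the 125th highest of the 13410 genes, but it started from a level under 6.19, so its exact size depends on background. The other MAFF probe set gave 7.26, 7.49, 7.97 and 7.64, with the same order of arrays and a first difference of only 0.23. ATF3, a repressor of several Toll-like receptor target genes, was at 5.998, 7.22, 7.80 and 7.20. Its probe set of highest mean was 2.34-fold higher with Pam3CSK4, from a resting level under 6.19, so this size too depends on background. The other ATF3 probe set above 6.19 was nearly level, between 6.60 and 6.74, and 0.11 lower with Pam3CSK4, so the ATF3 difference rests on a single probe set.

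Of the EGR factors, which are classical targets of SRF, only EGR1 was counted. EGR1, whose window holds the CArG boxes printed above, was at 8.26 in resting cells, 7.48 with Pam3CSK4, 7.62 at 12 h and 7.82 at 24 h. It was lower by 0.78 with Pam3CSK4, and by 1.07 on its other counted probe set, which was above 6.19 on the resting array alone, so the size of that difference depends on background. The level at 24 h was 0.34 above Pam3CSK4, and 0.05 above it on the other counted probe set. SRF itself was at 9.997 on the resting array and 10.001 on the Pam3CSK4 array, 9.48 at 12 h and 9.86 at 24 h.

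The IER genes differed from each other. IER3, a target of NF-kB and MAPK that affects cell survival, was at 6.14 in resting cells, 8.54 with Pam3CSK4, 9.68 at 12 h and 8.76 at 24 h. Its values were thus spread over 3.54 log2, the widest range of the set, with the lowest value just under 6.19. IER5, a target of stress signals, was at 10.26, 11.71, 11.81 and 11.69, which is 2.73-fold higher with Pam3CSK4 and level within 0.12 after that. IER2, a nuclear protein induced by growth factors, was at 10.06, 10.25, 9.76 and 10.13, and its lowest value was that at 12 h. Each of the 3 had 1 probe set.

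The phosphatases were led by DUSP6, which acts on ERK in the cytoplasm. DUSP6 was at 10.43 in resting cells, 12.04 with Pam3CSK4, 12.07 at 12 h and 12.21 at 24 h. It was 3.05-fold higher with Pam3CSK4 and its 3 probe sets gave closely alike differences, from 1.61 to 1.79. DUSP4, a nuclear phosphatase of ERK, was at 7.30, 8.15, 9.12 and 8.39, and DUSP10, which acts on JNK and p38, was at 8.06, 9.01, 10.03 and 9.23. Both were under 2-fold higher with Pam3CSK4 on the probe set used, at 1.81-fold and 1.94-fold, and over 2-fold on their other probe sets, at 1.29 and 1.46 log2 for DUSP4 and 1.23 for DUSP10. DUSP2, a nuclear phosphatase of immune cells, was at 8.09, 8.56, 8.70 and 8.40, and DUSP5, another nuclear ERK phosphatase, stayed between 5.91 and 6.28.

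DUSP1, the phosphatase best known for limiting p38 in macrophages, was nearly level on its brightest probe set, at 6.90, 6.95, 7.03 and 6.87. Its other probe set above 6.19 gave 6.26, 6.99, 7.32 and 6.81, a first difference of 0.73. The probe sets therefore did not settle whether DUSP1 differed from resting cells.

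KLF4 and KLF6 were the KLF factors that were higher with Pam3CSK4. KLF4, which promotes monocyte differentiation, was at 8.93 in resting cells, 10.52 with Pam3CSK4, 9.67 at 12 h and 10.51 at 24 h. Its Pam3CSK4 and 24 h values were alike, and the 12 h value lay between them and the resting value. The first difference was 1.59 on this probe set and 0.74, under 2-fold, on the other KLF4 probe set above 6.19. KLF6, an early-response factor of activated macrophages, was at 8.47, 9.79, 9.67 and 9.63, which is 2.48-fold higher with Pam3CSK4 and level within 0.15 after that. Its 4 probe sets above 6.19 were higher by 0.41 to 1.31. KLF9, a target of the glucocorticoid receptor, was at 8.18, 7.59, 7.51 and 7.64, so 0.59 lower with Pam3CSK4. Its other probe sets above 6.19 were lower by only 0.20 and 0.08, under 1.5-fold. KLF2 stayed between 6.61 and 6.80 and KLF10 between 8.89 and 9.16.

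Of the remaining genes, MYC, the growth regulator, was at 10.49 in resting cells, 10.01 with Pam3CSK4, 9.05 at 12 h and 9.69 at 24 h. Its 12 h value was the lowest by 0.64. ZFP36, which binds and destabilises cytokine transcripts, was at 9.86, 10.23, 9.82 and 9.95, a range of 0.42. NR4A1, an orphan nuclear receptor, stayed between 7.51 and 7.59 and was the least variable of the 26.

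**Figure D2:**
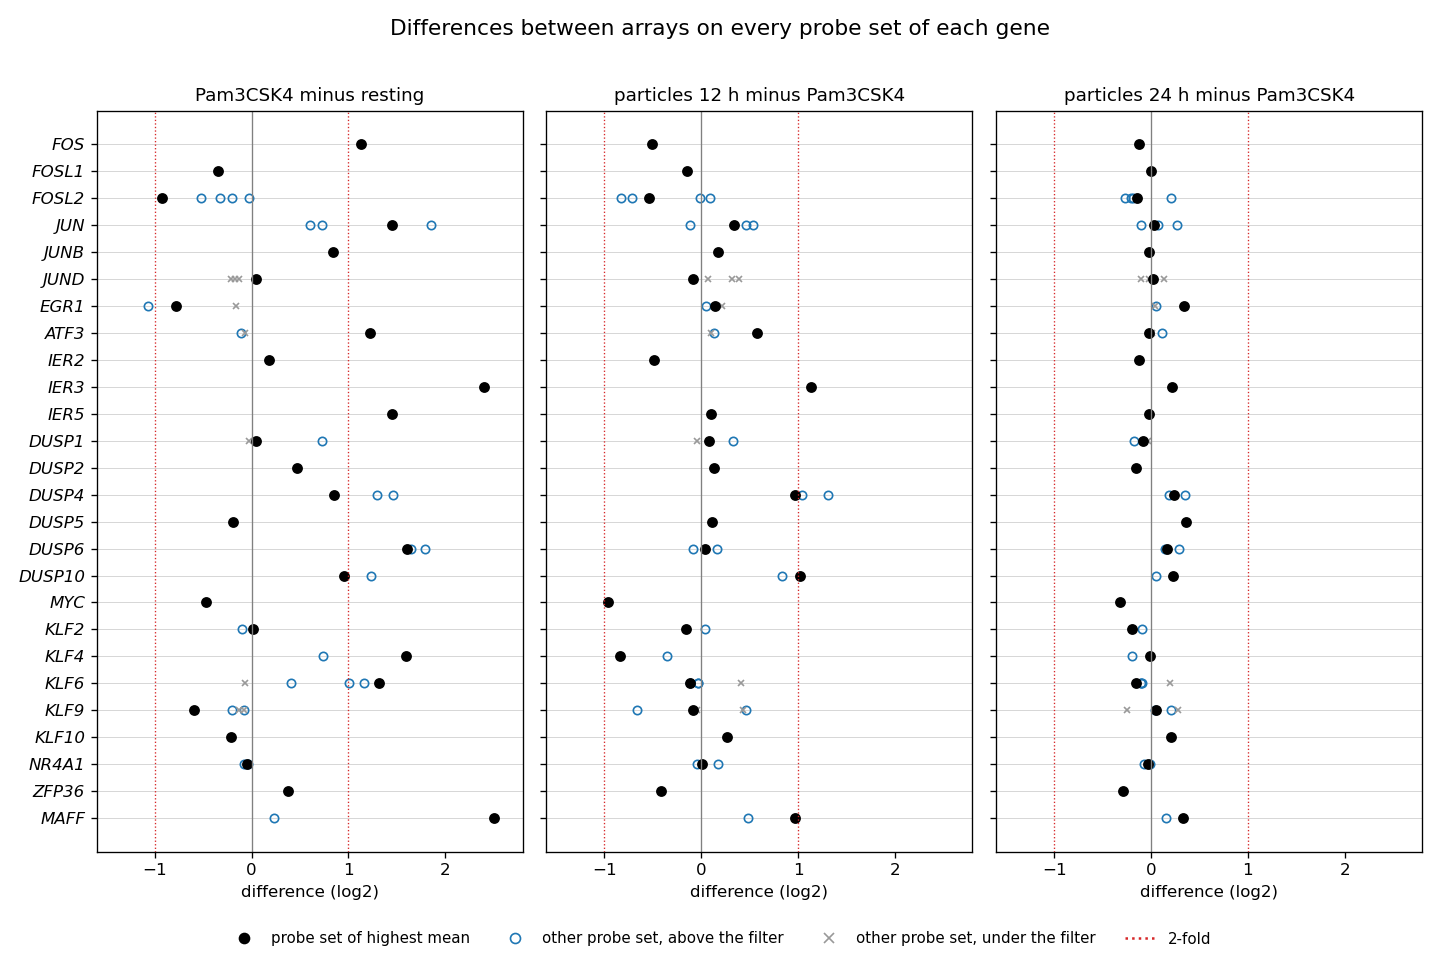
Difference between arrays (log2, horizontal axis) for the 26 counted genes (vertical axis) on every probe set; filled points are the probe set of highest mean, open points other probe sets that reached 6.19, crosses those that did not, and dotted lines mark 2-fold. Past 2-fold lie 9 filled points with Pam3CSK4, those of IER3 and DUSP10 after 12 h with particles, and 0 after 24 h.

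The next comparison set the 12 h co-culture array against the Pam3CSK4 array. IER3 and DUSP10 were at least 2-fold higher, 2 of the 26 genes or 7.69%, where 0.41% of all genes were, and 0 were at least 2-fold lower, where 0.35% of all genes were. IER3 was 2.20-fold higher, the 37th highest difference of the 13410 genes, and DUSP10 was 2.02-fold higher, the 51st. DUSP4 at 1.96-fold higher, MAFF at 1.96-fold higher and MYC at 1.95-fold lower stood just short of 2-fold. At 1.5-fold, 4 of the 26 were higher, or 15.4% against 1.9% of all genes, and 2 were lower, MYC and KLF4, or 7.69% against 2.86%. The median difference of the 26 was 0.06, against -0.05 over all genes.

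The 12 h differences went both ways within the set. ATF3, IER3, DUSP4, DUSP10 and MAFF were 0.57 to 1.14 higher, and these same genes were all higher with Pam3CSK4 than in resting cells. FOS, FOSL2, IER2, ZFP36, KLF4 and MYC were 0.42 to 0.96 lower. MYC was the 56th lowest and KLF4 the 109th lowest of the 13410 genes. FOSL2, FOS, IER2 and ZFP36 were less far out, at the 503rd, 616th, 701st and 1066th lowest. FOS and KLF4 were among the genes at least 2-fold higher with Pam3CSK4, so the Pam3CSK4 difference did not fix the side on which a gene stood at 12 h. DUSP6, IER5, KLF6 and JUNB, which also were at least 1.5-fold higher with Pam3CSK4, differed at 12 h by 0.17 or less. Both comparisons use the Pam3CSK4 array, so a high value on it enters them with opposite signs.

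Other probe sets bore on several of these values. The 3 DUSP4 probe sets were 0.97 to 1.31 higher at 12 h and the 2 of DUSP10 0.83 to 1.02 higher. MAFF was 0.97 and 0.48 higher, ATF3 0.57 and 0.14 higher, and KLF4 0.84 and 0.35 lower. KLF9 had probe sets on both sides, from -0.67 to 0.46. Over the 14 genes with several probe sets above 6.19, 8 had a single sign at 12 h, and 12 had it with Pam3CSK4 against resting cells.

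Markers that could come with the particles differed too. The 8 platelet and megakaryocyte markers had median levels of 6.17 on the Pam3CSK4 array, 6.40 on the 12 h array and 6.18 on the 24 h array. On the resting array, which had no particles, their median level was 6.295, so the Pam3CSK4 value was the lowest of the 4. Of the 8, 5 reached 6.19 on some array, and these had a median difference of 0.38 at 12 h, with 0 at 2-fold, while PF4, PPBP and TUBB1 did not reach it on any array. Of 9 monocytic markers, 1 was at least 2-fold lower at 12 h, CD14, at -1.18, and the median was -0.13. Of the 4 epithelial and fibroblast markers, 3 were counted and 0 of these differed 2-fold on the probe set used, where KRT18 was 0.71 and COL1A1 0.11 higher at 12 h, but another COL1A1 probe set was 1.97 higher. The part of any of these in the differences at 12 h was not tested. Since the Pam3CSK4 array's treatment time is not given, time and particles cannot be told apart.

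**Figure D3:**
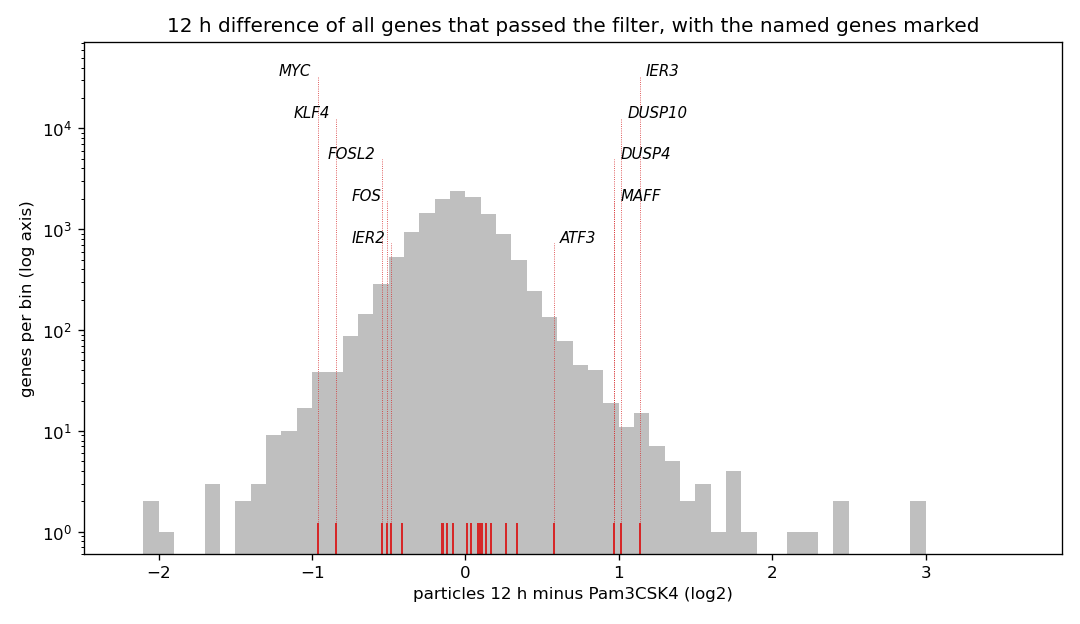
Number of genes (log axis) per 0.1 log2 of the difference between the 12 h and Pam3CSK4 arrays, over all 13410 genes; red ticks mark the 26 counted genes of the set, and those with a difference over 0.45 in size are named. IER3, DUSP10, DUSP4, MAFF and ATF3 lie on the upper side and MYC, KLF4, FOSL2, FOS and IER2 on the lower side.

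After 24 h with particles, the genes stood near the Pam3CSK4 array. Of the 26, 0 were at least 2-fold higher, where 0.0298% of all genes were, and 0 were at least 2-fold lower, where 0.0% of all genes were. At 1.5-fold the counts were again 0 and 0, against 0.164% and 0.00746% of all genes. The differences ran from -0.32 for MYC to 0.36 for DUSP5, with a median of -0.01, against -0.01 over all genes. DUSP5 had the 176th highest difference of the 13410 genes, EGR1, at 0.34, the 230th and MAFF, at 0.33, the 250th, while MYC had the 108th lowest and ZFP36, at -0.29, the 187th lowest. The other counted probe sets of EGR1 and MAFF were only 0.05 and 0.15 higher at 24 h. DUSP5 counted only because of its 24 h value of 6.28.

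Between 24 h and 12 h with particles, IER3, DUSP10, DUSP4, MAFF and ATF3 were lower at 24 h, with differences of -0.92, -0.79, -0.73, -0.64 and -0.60, and KLF4 and MYC were higher, by 0.83 and 0.64. These 5 and 2 genes were past 1.5-fold, 19.2% and 7.69% of the 26, where 1.38% and 3.14% of all genes were. At 2-fold, 0 were lower and 0 higher, where 0.224% and 0.343% of all genes were. On other probe sets above 6.19 the difference was -0.33 for MAFF, -0.02 for ATF3 and 0.15 for KLF4, each under 1.5-fold. It was -0.85 and -0.96 for DUSP4 and -0.78 for DUSP10. Over the 14 genes with several probe sets above 6.19, 8 had a single sign in this comparison. All 6 genes that differed at least 1.5-fold from Pam3CSK4 at 12 h were under 1.5-fold at 24 h, and so were 621 of the 638 genes that did so in the whole table. The comparisons share arrays, so a high 12 h value enters this difference and that with Pam3CSK4 with opposite signs.

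Further genes of the pathway came from lists outside the set. Of 17 other MAPK feedback genes, 16 were counted, and with Pam3CSK4 2 were at least 2-fold higher and 0 lower, against 4.14% and 1.71% of all genes, with a median of 0.11. ETV5, an ETS factor downstream of ERK, was at 7.71 in resting cells, 10.17 with Pam3CSK4, 10.45 at 12 h and 10.01 at 24 h. TRIB1, a pseudokinase adaptor, was 1.33 higher with Pam3CSK4. The ETV5 probe sets above 6.19 gave first differences of 0.39 to 2.46. PHLDA1 was 0.05 higher on the probe set used, but its 5 probe sets above 6.19 ran from -0.27 to 2.26. The Sprouty gene SPRY4, an ERK inhibitor, was 0.89 higher. At 12 h 1 of the 16 was at least 2-fold higher than Pam3CSK4, against 0.41% of all genes. This was MAP3K8, the kinase that links Toll-like receptors to ERK, at 6.08, 6.60, 7.78 and 6.98 over the arrays. Its 2 probe sets above 6.19 were 0.53 and 1.18 higher at 12 h. With Pam3CSK4 they were, in that order, 1.69 and 0.52 higher than in resting cells, and the probe set used was the second. DUSP7, an ERK phosphatase, was at 9.74, 9.22, 8.52 and 9.24, lowest at 12 h.

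Of 28 other immediate early genes, 23 were counted, and with Pam3CSK4 10 were at least 2-fold higher and 0 lower, against 4.14% and 1.71% of all genes, with a median of 0.48. SGK1, a survival kinase, was at 6.45 in resting cells, 11.59 with Pam3CSK4, 12.67 at 12 h and 11.96 at 24 h. ZFP36L1, a relative of ZFP36, was at 5.31, 9.04, 9.41 and 9.37, and RGS1, a brake on G protein signals, at 4.00, 7.61, 8.54 and 8.07, both from resting levels under 6.19. The others were NFKBIZ, NFKBIA, TNFAIP3, BHLHE40, KLF13, RGS2 and PPP1R15A, at 1.04 to 3.34. The other counted probe sets of BHLHE40 and KLF13 were under 2-fold, at 0.03 and 0.60. At 12 h SGK1 was 1.08 and the repressor BHLHE40 1.18 higher than with Pam3CSK4, 2 of the 23, and 0 were at least 2-fold lower, against 0.41% and 0.35% of all genes. BHLHE40 was at 7.14, 8.90, 10.09 and 9.14, and its other probe set was 0.13 higher at 12 h.

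The kinases that carry the signal and the factors they act on stayed under 2-fold. All 21 genes of that list with a probe set were counted of 27 listed, and 0 were 2-fold higher or lower in any of the 4 comparisons, where 4.14% and 1.71% of all genes were with Pam3CSK4. The median of that comparison was 0.0045, but single genes differed by more: MAP2K1, the kinase that activates ERK, was 0.93 higher and RPS6KA1, a kinase downstream of ERK, 0.75 higher, while MAPKAPK3, a p38 substrate kinase, differed by -0.70 and MAP3K1, a kinase further upstream, by -0.56. At 12 h the range on the probe sets used was -0.52 to 0.25, and the lowest was SRF, whose other counted probe set was at -0.18. Over all counted probe sets of the list the range at 12 h was -0.68 to 0.76.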

How the data were processed

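Biotin-labelled RNA amplified from the total RNA of THP-1 cells was read on Affymetrix arrays, per the labels' protocols, with 1 array for each of 4 conditions. The deposited values are log2 values made by the authors with RMA in affy 1.28.1, per the submitters' processing notes. RMA brings all arrays to a common distribution, so a change in total RNA cannot be seen and low differences are compressed. Each array was grouped by its source label. Gene names came from GEO's platform annotation, in which 41091 probe sets name 1 gene and 1801 name several. The probe sets naming 1 gene alone were used, and 62 control probe sets were set aside. A gene was counted where its level on any array was 6.19 or more, the median of all values, and called at a 2-fold difference. No test was made. The genes, their roles, the other lists and the motifs were chosen with earlier results of these data known, as was the rule to name all genes of the set and those of other lists that differed 2-fold. Genes named outside that rule were chosen after their values were seen. They included DUSP7, SPRY4, PHLDA1, SRF, MAP2K1, RPS6KA1, MAPKAPK3, MAP3K1, the markers named by level, and those set beside the 1.5-fold limit. Calculations used Python 3.11.15, numpy 2.4.6 and pandas 2.3.3, cyclic loess used limma 3.58.1 in R 4.3.3 and figures used matplotlib 3.10.9. Simulated arrays with known changes were used to test the counts. The alternatives were other filters, probe set choices, scalings and fold limits.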

Additional observations from a re-analysis of the deposited data

Results flagged for a closer look

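DUSP2, a nuclear phosphatase of immune cells, was 0.14 log2 higher than with Pam3CSK4 at 12 h with particles and 0.16 lower at 24 h. It was set apart because the 2 co-culture arrays lay on opposite sides of the Pam3CSK4 array by more than 0.12, the robust spread over all genes of the difference between the 24 h and Pam3CSK4 arrays. The same spread for the 12 h difference was 0.23, so the DUSP2 value at 12 h lay within it. That value was 0.09 with arrays centred on their medians and 0.004 with centring on the bacterial controls, both under 0.12, and 0.20 with cyclic loess. With 1 array each, the difference between the times was not tested.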

How the results depend on the processing

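No paired analysis was possible because each condition had 1 array. The count of 9 genes at least 2-fold higher with Pam3CSK4 was 4 at 3-fold, where 2.31% of all genes were higher. It was 8 of 20 with a filter at the 75th percentile and 6 of 18 without _x_at and _s_at probe sets. The shares of all genes were 5.36% and 4.15%. At 1.5-fold 3 genes were lower, where 5.89% of all genes were. The median of that comparison was 0.28 with no filter and 0.85 with a filter at the 75th percentile, where that of all genes was -0.04 in both. With arrays centred on the 9 bacterial controls, an alternative chosen after seeing the data, it was 0.76, but that centring moved the median of all genes from -0.05 to 0.29, with 6.61% of all genes and 12 of the set higher. Against Pam3CSK4 at 12 h, the count of 2 genes higher was 4 at 1.5-fold, 0 at 3-fold, 1 with arrays centred on their medians and 1 with centring on the bacterial controls, where DUSP10 was at 0.97 and 0.88. The shares of all genes were 1.9%, 0.0895%, 0.374% and 0.289%. With cyclic loess the count was 3, since DUSP4 was then at 1.02. DUSP4 was also past 2-fold where probe sets were averaged, at 1.11, and where those named _x_at or _s_at were left out, at 1.04. The count was still 2 in each of these last settings, against 0.316% and 0.45% of all genes. DUSP10 was under 2-fold in the first, and IER3, with only an _s_at probe set, had no value in the second. The count of 0 lower was 2 at 1.5-fold, against 2.86% of all genes, and 1 under either centring, against 0.426% and 0.727%, which was MYC at -1.01 and -1.10. The median of 0.06 was -0.074 with centring on the bacterial controls, against -0.18 over all genes. From 12 h to 24 h, the counts of 0 were 2 higher and 5 lower at 1.5-fold, against 3.14% and 1.38% of all genes. With _x_at and _s_at probe sets left out, ATF3 differed by -0.11 between Pam3CSK4 and resting cells, of the opposite sign, since a different probe set was then used, and JUN by 0.60. With probe sets averaged, ATF3 differed by 0.35 and KLF6 by 0.76 in that comparison, under 2-fold, and DUSP10 by 0.92 at 12 h. Whether a probe set was above background could be judged by its level alone.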

Other observations

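Of 17 other bZIP factors that can pair or compete with the AP-1 genes, 15 had a probe set and 14 were counted. With Pam3CSK4, 2 were at least 2-fold higher than in resting cells and 0 lower, against 4.14% and 1.71% of all genes, with a median of 0.30. MAF, a large MAF factor of macrophages, was at 5.93 in resting cells, under the median of all values, and at 8.16 with Pam3CSK4, 8.83 at 12 h and 8.70 at 24 h. BATF2, an interferon-induced relative of FOS, was at 6.23, 7.39, 8.08 and 7.52, in the same order of arrays as MAFF. BATF3, chosen after its values were seen, was lower by 0.91 with Pam3CSK4, from 9.58 to 8.66. At 12 h and at 24 h with particles, 0 of the 14 differed 2-fold from Pam3CSK4, where 0.41% of all genes were higher and 0.35% lower at 12 h, and 0.0298% and 0.0% at 24 h. The constantly abundant factors ATF4 and CEBPB, also chosen after their values were seen, stayed within 12.79 to 12.93 and 10.74 to 10.97.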
